A study of Mus musculus with 6 samples.

Results

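NOVA1 and NOVA2 binding was described in the transcripts of 7 genes that encode other splicing regulators: Rbfox1, Rbfox2, Rbfox3, Ptbp1, Ptbp2, Mbnl1 and Mbnl2. The binding sites came from HITS-CLIP, in which ultraviolet light crosslinks a protein to the RNA it touches, the protein is recovered with its antibody, and the attached RNA fragments are sequenced. All samples were wild-type cortex of CD1 mice at embryonic day 18.5, with 3 libraries made for NOVA1 and 3 for NOVA2. Overlapping unique fragments, called tags, had been joined into clusters, and the deposited lists held clusters of at least 10 tags that were seen in at least 2 libraries of a protein, 9988 for NOVA1 and 36591 for NOVA2. A cluster was taken when it overlapped, by at least 1 nt and on the same strand, the annotated span of one of the 7 genes. This gave 284 of the 46579 clusters, of which 66 were NOVA1 clusters with 1838 tags and 218 were NOVA2 clusters with 15594 tags. A NOVA2 cluster was found in 6 of the 7 genes and a NOVA1 cluster in 4.

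RBFOX, PTBP and MBNL proteins, like NOVA proteins, bind short motifs in pre-mRNA and promote inclusion or skipping of nearby cassette exons. RBFOX proteins bind UGCAUG, PTBP proteins bind pyrimidine-rich runs such as CUCUCU, and MBNL proteins bind YGCY elements, where Y is U or C. NOVA proteins bind clusters of YCAY. Rbfox1, Rbfox2 and Rbfox3 (whose protein is the neuronal marker NeuN) are expressed in neurons. Ptbp1 is a repressor of neuronal exons in progenitor and non-neuronal cells, Ptbp2 replaces it in young neurons, and Mbnl1 and Mbnl2 are known for the switch from fetal to adult splicing patterns. Transcripts of many splicing regulators carry cassette exons that these proteins control, in their own transcript or in that of a paralog.

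The 30-nt windows that held the most YCAY are shown for the NOVA2 cluster of highest tag count in each gene, for the NOVA2 intron clusters within 500 nt of a cassette exon, and for the cluster at exon 10 of Ptbp2, so that the sites discussed can be read directly. They were read from the reference genome (mm9) on the strand of the transcript, 5′ to 3′, with capitals marking YCAY. The sequence is that of the reference strain, while the animals were CD1.
Rbfox1, highest NOVA2 cluster, chr16:7024474-7024503, plus strand: uagcaCCACugCCAUCAUCAUuaCCAUCAC
Rbfox1, downstream of the 93-nt cassette exon, chr16:7292415-7292444, plus strand: auaaaugucugcuUCACgcUCAUucguccu
Rbfox1, upstream of a 54-nt cassette exon, chr16:7306248-7306277, plus strand: aauccuguccuuuUCACacgguUCACcugu
Rbfox2, highest NOVA2 cluster, in the 3′ UTR, chr15:76910965-76910994, minus strand: uuugUCAUgcucuugagaaugucugaUCAU
Rbfox2, in the intron downstream of the 93-nt cassette exon, chr15:76935938-76935967, minus strand: ucuuucucuuuguguacugccUCACuUCAC
Rbfox2, upstream of the 93-nt cassette exon, chr15:76936181-76936210, minus strand: cugguguuaguugugcuggcgUCACuUCAU
Rbfox3, highest NOVA2 cluster, chr11:118730697-118730726, minus strand: caacaUCACCACCACaaUCAUCAUCACCAU
Ptbp2, highest NOVA2 cluster, chr3:119448613-119448642, minus strand: uauauguUCAUcaauaaagaacagauCCAU
Ptbp2, upstream of exon 10, chr3:119427668-119427697, minus strand: uugaaCCAUgauCCAUgaCCACcUCACCAU
Mbnl1, highest NOVA2 cluster, chr3:60422614-60422643, plus strand: ccaacaacUCAUggcuCCACagacuuCCAU
Mbnl2, highest NOVA2 cluster, chr14:120704815-120704844, plus strand: cugugauUCAUuucuCCAUUCAUCACCCAU
The windows in the highest clusters of Rbfox1 and Rbfox3 held 6 and 7 YCAY starts, whereas those beside the cassette exons of Rbfox1 and Rbfox2 and in the highest clusters of Rbfox2 and Ptbp2 held 2 each. The windows were chosen for their YCAY, so these counts describe them and compare nothing. Over all NOVA2 intron clusters of the 7 genes, 53.1% had a 30-nt window with at least 3 YCAY starts, beside 60.3% of all NOVA2 intron clusters.

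The tag counts had been pooled over the libraries of a protein, so the lists give no value per library, the spread between replicates is unknown, and no test was made. Shares carry Wilson 95% intervals and medians carry binomial 95% intervals, which cover counting error only. Tags summed to 304703 over all NOVA1 clusters and to 1309270 over all NOVA2 clusters, a log2 ratio of -2.10. Counts were scaled neither to library size nor to RNA level. The tag count of a cluster is likely its peak height and not the number of all its tags. Sums, shares and ratios of tags would then be those of heights. In whole cortex, fewer cells that express a gene and less RNA per cell cannot be told apart, and both bear on the number of tags.

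Rbfox1 and Ptbp2 held most of the clusters. Rbfox1 held 150 NOVA2 and 38 NOVA1 clusters, Ptbp2 30 and 15, Rbfox2 21 and 9, and Rbfox3 11 and 4. Mbnl1 held 4 and Mbnl2 2 NOVA2 clusters, both had 0 NOVA1 clusters, and Ptbp1 had 0 clusters in either list. By tags the order differed. Of the NOVA2 tags of these genes, Rbfox1 held 66.4%, Rbfox3 14.5%, Ptbp2 12.9% and Rbfox2 5.59%. Of the NOVA1 tags, Rbfox1 held 59.4%, Ptbp2 14.7%, Rbfox2 14.4% and Rbfox3 11.5%. For comparison, 22.7% of all protein-coding genes held a NOVA2 cluster and 12.7% a NOVA1 cluster. The plot of clusters along the genes shows dense binding at the 5′ side of Rbfox1, 2 groups of strong clusters in Rbfox3, and sparse, weak clusters in the Mbnl genes.

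**Figure D1:**
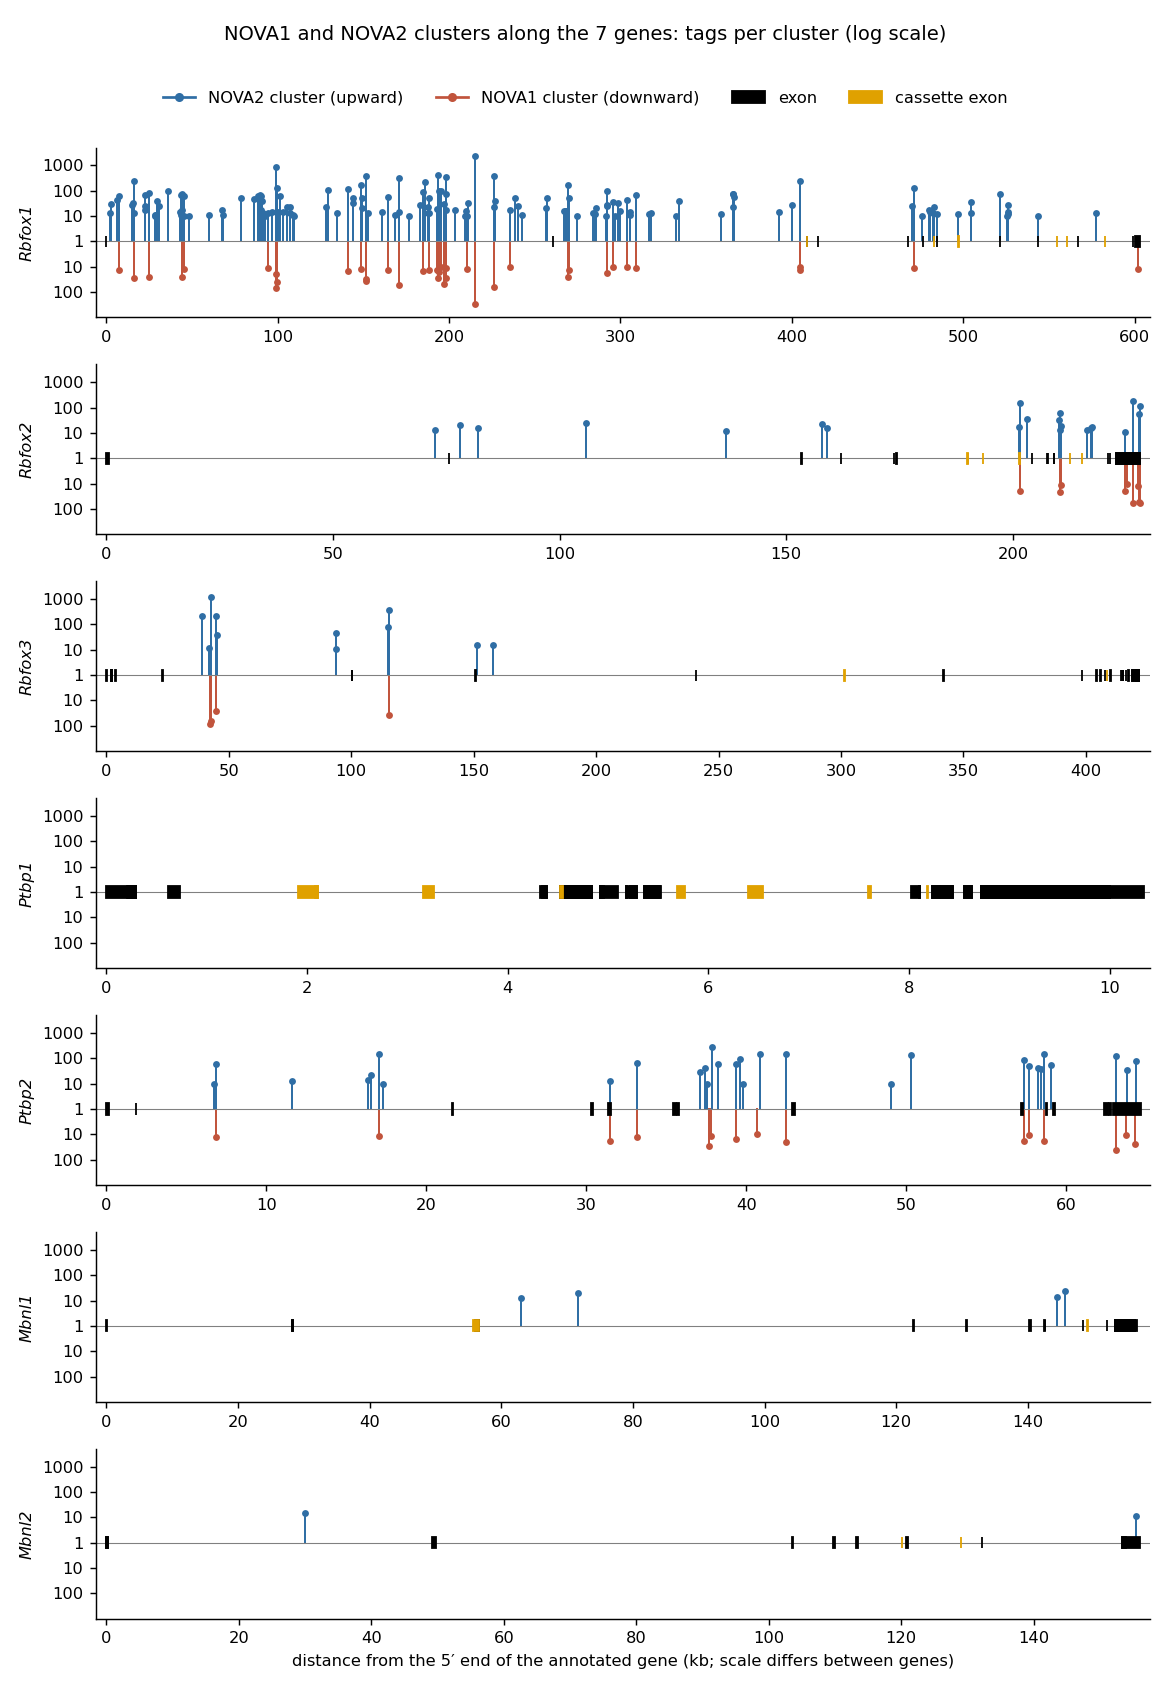
Clusters along the 7 genes, with the distance from the annotated 5′ end in kb on the x axis (a different scale for each gene) and tags per cluster on a log y axis, NOVA2 upward in blue and NOVA1 downward in red. Exons are black and cassette exons yellow; Rbfox1 has 150 NOVA2 clusters, Ptbp2 30 in a much shorter span, and Ptbp1 none.

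Long genes offer more RNA to bind, so the number of clusters was also given per length. Ptbp2 spans 64.6 kb and held 46.4 NOVA2 clusters per 100 kb. This was rank 1 of the 2766 protein-coding genes of at least 50 kb with a NOVA2 cluster, whose median was 3.53 per 100 kb. Among the 4166 such genes of at least 20 kb it was rank 4. By NOVA1 clusters, Ptbp2 held 23.2 per 100 kb and ranked 4 of 1568 genes of at least 50 kb and 29 of 2289 genes of at least 20 kb. Rbfox1 spans 603 kb and held 24.9 NOVA2 clusters per 100 kb, rank 18 of 2766, and 6.30 NOVA1 clusters per 100 kb, rank 124 of 1568. By summed tags, Rbfox1 ranked 7 of all 5076 protein-coding genes with a NOVA2 cluster. Rbfox2 had 9.21 NOVA2 clusters per 100 kb, above the median of genes of at least 50 kb, while Rbfox3 with 2.61, Mbnl1 with 2.55 and Mbnl2 with 1.28 lay below it. The ranks are a description of these lists, since the RNA level of each gene was not analysed here. The ranks of Rbfox1 also rest on its annotated span, upstream of which further clusters lay.

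**Figure D2:**
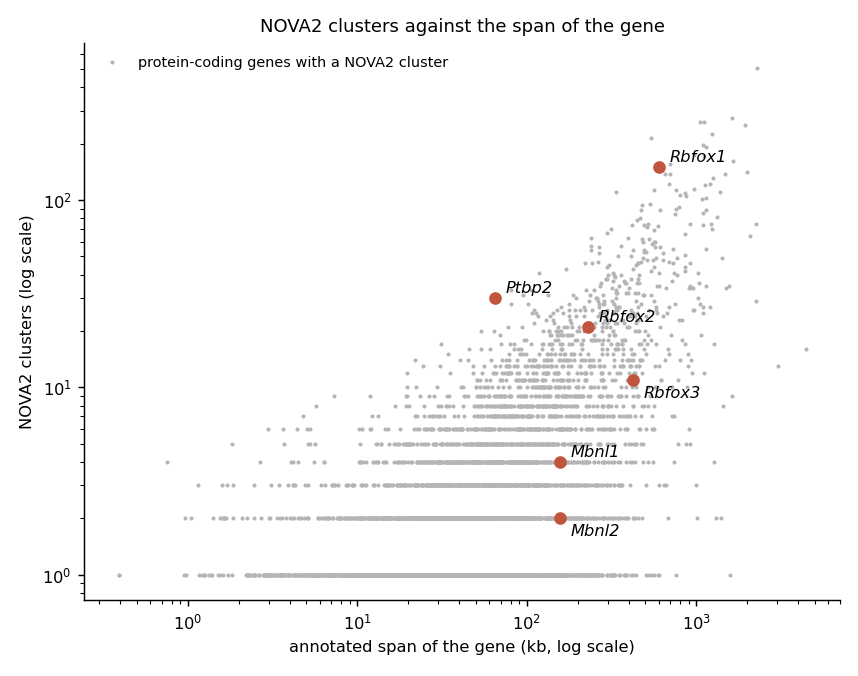
Number of NOVA2 clusters (log y axis) against the annotated span in kb (log x axis) for every protein-coding gene with a NOVA2 cluster, in grey, with 6 of the 7 genes in red; Ptbp1 has 0 clusters and is not drawn. Ptbp2, with 30 clusters in 64.6 kb, has the most clusters per length of the drawn genes of at least 50 kb. Mbnl1 and Mbnl2, at 2.55 and 1.28 per 100 kb, lie below the median of 3.53 for those genes.

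The clusters of these genes lay mainly in introns. Of the NOVA2 clusters, 209 of 218 (95.9%, 92.3 to 97.8) were intronic, beside 74.6% of all NOVA2 clusters. Of the NOVA1 clusters, 55 of 66 (83.3%, 72.6 to 90.4) were intronic, beside 40.3% of all NOVA1 clusters. Without Rbfox1 the shares were 86.8% for NOVA2 and 64.3% for NOVA1. Clusters in 3′ UTRs numbered 10 for NOVA1 (15.2%, 8.44 to 25.7, beside 37.7% of all NOVA1 clusters) and 8 for NOVA2 (3.67%, 1.87 to 7.07, beside 12.1%). A NOVA1 and a NOVA2 cluster, at the same place in exon 5 of Ptbp2, lay in coding sequence. No cluster lay mainly in a 5′ UTR. The shares over all clusters also count clusters outside annotated genes, 4058 for NOVA2 and 1161 for NOVA1. The rule could not take such clusters for the 7 genes. This lowers the intron and 3′ UTR shares over all clusters relative to those of these genes.

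Rbfox1 (chr16:6809315-7412572, plus strand) was bound in its long 5′ introns. All of its 150 NOVA2 clusters were intronic, with 10351 tags in all, a median of 22.0 and a range of 10 to 2279. Its NOVA1 clusters summed to 1091 tags, with 37 in introns and 1 in the 3′ UTR. The first annotated intron, of 261 kb, held 99 NOVA2 clusters with 8583 tags and 28 NOVA1 clusters with 956 tags. This is 82.9% of the NOVA2 intron tags and 88.6% of the NOVA1 intron tags in 43.5% of the intron length. Together with the second intron, which brings the share of intron length to 68.2%, it held 132 NOVA2 and 36 NOVA1 clusters. The other introns, 190 kb in all, where most coding exons lie, held 18 NOVA2 clusters with 464 tags and a single NOVA1 cluster of 11 tags. NOVA2 clusters stood at 32.3 per 100 kb in the first 2 introns and at 9.46 per 100 kb in the rest. These values hold for the annotated span only. Upstream of it on the same strand lay 220 NOVA2 clusters with 11543 tags and 39 NOVA1 clusters with 864 tags, which are described below.

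The strongest cluster of both lists in Rbfox1 was one site. The NOVA2 cluster at chr16:7024297-7024944 had 2279 tags, 22.0% of the NOVA2 tags of the gene, and held 54 YCAY in 648 nt. The NOVA1 cluster at chr16:7024300-7024833 had 284 tags, 26.0% of the NOVA1 tags of the gene. The site lay in the first intron, 44983 nt upstream of the nearest annotated exon. The next NOVA2 clusters by tags were also deep in this intron, with 824 tags at chr16:6907914-6908387 and 408 tags at chr16:7002800-7002936. Sites were grouped, since 68.7% of the Rbfox1 NOVA2 clusters had another within 1000 nt. Neighbouring clusters could lie 0 nt apart, so the number of clusters depends on where the authors' grouping split runs of tags.

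Weaker NOVA2 clusters bordered the coding exons of Rbfox1. Of its 150 NOVA2 intron clusters, 6 lay within 500 nt of an exon, with 10 to 72 tags, and 0 of its 37 NOVA1 intron clusters did. The strongest, of 72 tags, began 38 nt downstream of an 81-nt exon that was in all 7 transcripts used. A cluster of 22 tags at chr16:7292415-7292479 began 44 nt downstream of the 93-nt cassette exon, and a cluster of 12 tags at chr16:7306248-7306395 ended 105 nt upstream of a 54-nt cassette exon. No NOVA1 cluster overlapped any of these 6.

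Rbfox2 (chr15:76909420-77137483, minus strand) differed from Rbfox1 in where NOVA1 tags lay. Of its 9 NOVA1 clusters, 6 were in the 3′ UTR, with 213 of 265 tags, and 3 in introns, with 52 tags. Of its 21 NOVA2 clusters, 4 were in the 3′ UTR, with 373 of 872 tags, and 17 in introns, with 499. The highest cluster of NOVA2, with 185 tags at chr15:76910860-76911080, and that of NOVA1, with 60 tags at chr15:76909460-76909550, were both in the 3′ UTR. Between coding exons, a 3.45-kb intron held 4 NOVA2 clusters with 124 tags and a 5.66-kb intron 3 with 46 tags.

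The 93-nt cassette exon of Rbfox2 was flanked by NOVA2. This exon encodes part of the RNA recognition motif, and RBFOX proteins are known to promote its skipping in their own transcripts. A NOVA2 cluster of 152 tags at chr15:76935763-76936025 covered the downstream 5′ splice site of the exon (chr15:76936007-76936099) and ran into the intron, and a second of 17 tags at chr15:76936148-76936247 ended 48 nt upstream of the exon. Inside the span of the stronger one, 121 nt downstream of the exon, NOVA1 had a cluster of 19 tags at chr15:76935805-76935885. The stronger cluster held 5 YCAY, or 19.2 per 1000 positions, beside 16.4 in the Rbfox2 introns outside clusters. The exon was in 6 of 8 Rbfox2 transcripts.

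The same exon was compared across the 3 Rbfox genes. It has 93 nt in each and was a cassette exon in each, with 92.5% identical nucleotides between Rbfox1 and Rbfox2 and 74.2% between either and Rbfox3. NOVA2 tags beside it were 152 and 17 in Rbfox2 and 22 in Rbfox1. In Rbfox3 the nearest NOVA2 cluster was 250525 nt away. NOVA1 had a cluster within 500 nt of this exon in Rbfox2 alone among the 3 genes. The 40-nt and 43-nt cassette exons near the 3′ ends of Rbfox1 and Rbfox2 had no cluster within 500 nt.

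**Figure D3:**
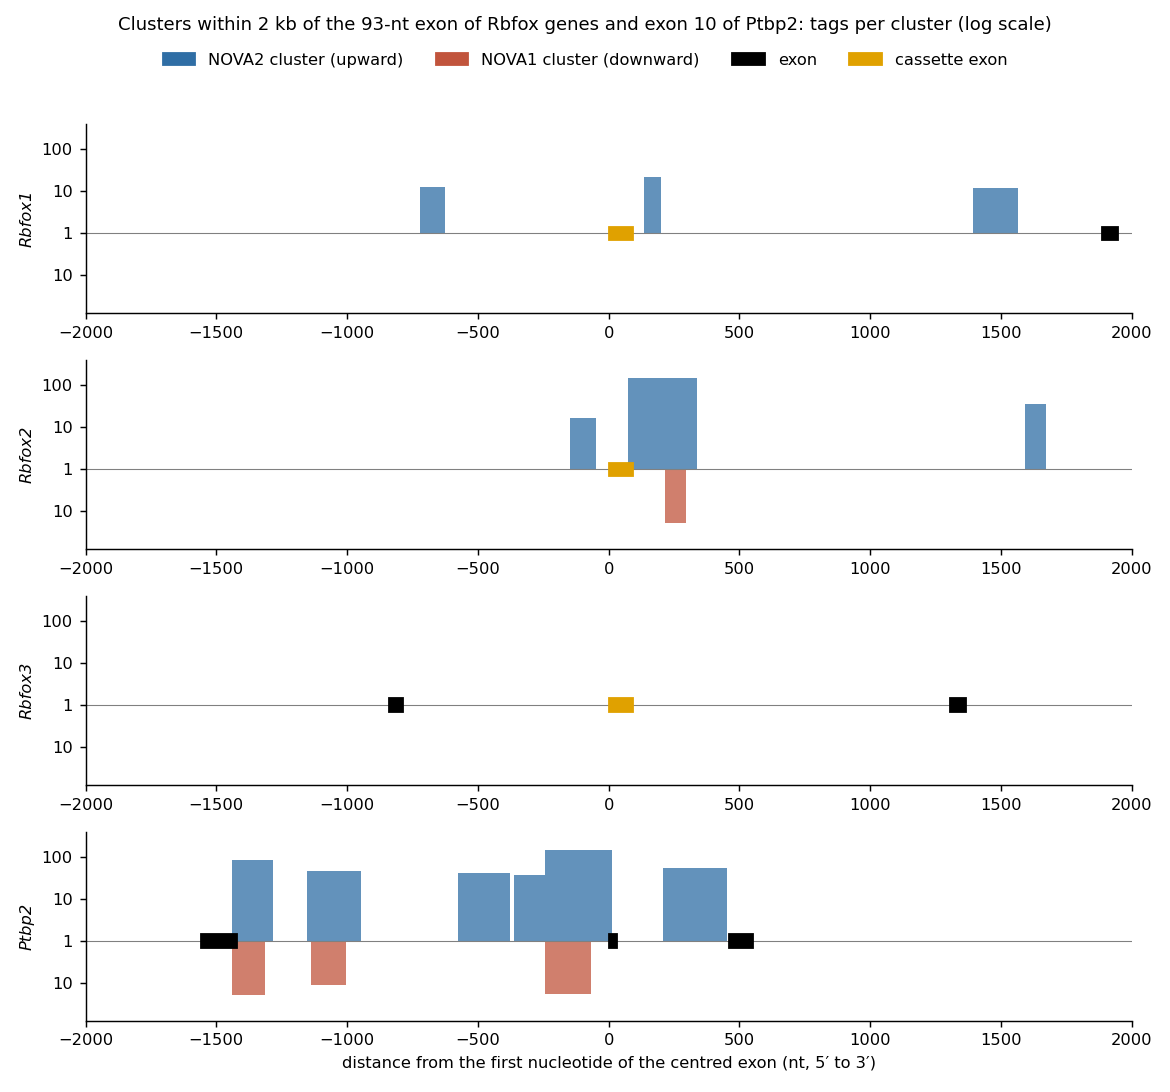
Clusters within 2 kb of the 93-nt cassette exon of Rbfox1, Rbfox2 and Rbfox3 and of the 34-nt exon 10 of Ptbp2, with the distance from the first nucleotide of that exon in nt on the x axis and tags per cluster on a log y axis, NOVA2 upward in blue and NOVA1 downward in red. Rbfox2 has a NOVA2 cluster of 152 tags at the downstream edge of the exon and a NOVA1 cluster of 19 tags inside that cluster, Rbfox1 a NOVA2 cluster of 22 tags, Rbfox3 none, and exon 10 of Ptbp2 has NOVA2 clusters on both sides.

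Rbfox3 (chr11:118351074-118772911, minus strand) had few clusters with many tags. Its 11 NOVA2 clusters, all intronic, summed to 2261 tags, of which the cluster at chr11:118729841-118730766 alone held 1238, or 54.8%. This cluster was 926 nt wide and held 120 YCAY, 130 per 1000 positions, and 2 NOVA1 clusters of 67 and 82 tags lay against it. The other strong NOVA2 clusters had 383 tags at chr11:118657257-118657746, 213 tags at chr11:118733512-118734042 and 210 tags at chr11:118727930-118728406. All 4 NOVA1 clusters, with 26 to 82 tags, overlapped NOVA2 clusters. No Rbfox3 cluster lay within 500 nt of an exon, the nearest being 529 nt away, and no cluster was found among its coding exons, which lie at the 3′ end of the gene. Of these, 2 NOVA2 clusters and 1 NOVA1 cluster also lay in Gm11749, annotated on the same strand, so their tags cannot be given to one gene.

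Ptbp1 (chr10:79317172-79327516, plus strand) spans 10.3 kb, and of protein-coding genes spanning 5 to 20 kb 11.1% held a NOVA2 cluster and 6.37% a NOVA1 cluster. Clusters under 10 tags were not in the lists, so its 0 clusters set no upper limit on binding. Its paralog Ptbp2 (chr3:119421660-119486306, minus strand) held 2014 NOVA2 tags and 270 NOVA1 tags. Of the NOVA2 clusters, 26 were in introns, 3 in the 3′ UTR and 1 in coding sequence. Of the NOVA1 clusters the numbers were 11, 3 and 1. The cluster of highest tag count was at chr3:119448228-119448707 for NOVA2, with 269 tags in intron 7, and at chr3:119423052-119423305 for NOVA1, with 43 tags in the 3′ UTR. Tags were spread more evenly than in the Rbfox genes, since the highest NOVA2 cluster held 13.4% of the gene's tags.

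Between exons 7 and 11 of Ptbp2, introns 7 to 10 made up 37.6% of the intron length and held 18 of 26 NOVA2 intron clusters with 80.8% of the NOVA2 intron tags, and 8 of 11 NOVA1 intron clusters with 77.9% of the NOVA1 intron tags. The stretch was not set in advance, so its shares describe where tags lay and compare nothing. Within this stretch binding was uneven, and intron 8, of 14.1 kb, held 2 NOVA2 clusters with 143 tags and 0 NOVA1 clusters. Intron 7, of 7.08 kb, alone held 10 NOVA2 clusters with 868 tags and 5 NOVA1 clusters with 86 tags. Introns 9 and 10, which together measure 1.84 kb and flank exon 10, held 6 NOVA2 clusters with 413 tags and 3 NOVA1 clusters with 48 tags. NOVA2 intron clusters stood at 325 per 100 kb in these 2 introns and at 78.1 in introns 7 to 10 together. Over the whole gene, with exons and the clusters in them counted, the value was 46.4. As in Rbfox1, the number of clusters depends on where runs of tags were split.

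Exon 10 of Ptbp2 (chr3:119427530-119427563) has 34 nt and is the exon whose skipping, known to be promoted by PTBP1, shifts the reading frame and leads to decay of the mRNA. It was singled out here after its values were seen. A NOVA2 cluster of 147 tags at chr3:119427551-119427805 covered its upstream 3′ splice site, and the overlapping NOVA1 cluster of 18 tags at chr3:119427632-119427805 ended 68 nt upstream of the exon. Further NOVA2 clusters of 37 and 43 tags followed 245 and 377 nt upstream. On the other side, a NOVA2 cluster of 54 tags at chr3:119427110-119427354 lay in intron 10 and ended 5 nt before exon 11. At the 5′ splice site of exon 9, a NOVA2 cluster of 84 tags and a NOVA1 cluster of 19 tags overlapped the exon edge. The annotation used gives Ptbp2 a single transcript and so no cassette exon, and exon 10 does not enter the cassette counts given below. In Ptbp1 the 34-nt exon at the like place (chr10:79324759-79324792, 76.5% identical nucleotides) was annotated as a cassette exon and had no cluster.

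Mbnl1 (chr3:60277032-60433670, plus strand) and Mbnl2 (chr14:120674891-120830919, plus strand) span 157 and 156 kb. Of protein-coding genes spanning 100 to 200 kb, 59.4% held a NOVA2 cluster and 33.3% a NOVA1 cluster. The 4 Mbnl1 clusters had 13, 20, 14 and 23 tags, all in introns and 1757 to 14916 nt from the nearest exon. Mbnl2 had an intron cluster of 15 tags, 19132 nt from the nearest exon, and a 3′ UTR cluster of 11 tags at chr14:120830235-120830318. The cassette exons of Mbnl1 and Mbnl2 had no cluster within 500 nt.

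The distance to exons was also counted over the 7 genes together. Of the intron clusters, 15 of 209 NOVA2 clusters (7.18%, 4.40 to 11.5) and 5 of 55 NOVA1 clusters (9.09%, 3.95 to 19.6) lay within 500 nt of an exon, beside 10.3% and 12.3% of all intron clusters, which lie within these intervals. Without Rbfox1 the shares were 15.3% (8.24 to 26.5) and 27.8% (12.5 to 50.9), and 4 of the 5 NOVA1 clusters concerned were in Ptbp2. The nearest exon was a cassette exon for 15 NOVA2 clusters (7.18%, beside 11.5% of all) and for 1 NOVA1 cluster (1.82%, 0.322 to 9.61, beside 12.0% of all). Ptbp2 has no annotated cassette exon. Its 26 NOVA2 and 11 NOVA1 intron clusters are among those counted but could not be called. Counted by exon, 3 of 18 cassette exons of the 6 genes with clusters (16.7%, 5.84 to 39.2) had a NOVA2 cluster within 500 nt, and 1 (5.56%, 0.988 to 25.8) a NOVA1 cluster. The same shares over cassette exons of all protein-coding genes holding a cluster were 8.37% and 3.15%. The 3 exons were the 93-nt exons of Rbfox1 and Rbfox2 and the 54-nt exon of Rbfox1.

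NOVA1 sites were nearly all NOVA2 sites as well. Of the 66 NOVA1 clusters, 64 (97.0%, 89.6 to 99.2) overlapped a NOVA2 cluster, beside 80.1% of all NOVA1 clusters. Among intron clusters it was 55 of 55 (93.5 to 100), beside 95.5%. The 2 NOVA1 clusters without NOVA2 overlap were both in 3′ UTRs, with 12 tags in Rbfox1 at chr16:7410988-7411106 and 10 tags in Rbfox2 at chr15:76912322-76912411. In the other direction, 60 of 218 NOVA2 clusters (27.5%, 22.0 to 33.8) overlapped a NOVA1 cluster, beside 22.1% of all NOVA2 clusters, and 52 of 209 intron clusters (24.9%, 19.5 to 31.2), beside 14.1%.

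The overlap followed the number of tags. NOVA2 clusters of 10 to 24 tags overlapped a NOVA1 cluster in 8 of 113 cases, those of 25 to 99 tags in 24 of 73, and those of at least 100 tags in 28 of 32. Over all NOVA2 clusters the shares in these classes were 9.49%, 36.1% and 88.2%, close to the 7.08%, 32.9% and 87.5% of these genes. Of intron clusters of at least 100 tags, 25 of 29 (86.2%, 69.4 to 94.5) overlapped, beside 84.8% of all. The NOVA1 list holds no cluster under 10 tags, so weaker NOVA1 binding at NOVA2 clusters without a partner cannot be seen in it. The 5 strongest NOVA2 clusters without NOVA1 overlap had 225 tags in Rbfox1 (chr16:6994959-6995283), 213 in Rbfox3 (chr11:118733512-118734042), 133 in Ptbp2 (chr3:119435858-119436180, in intron 8), and 104 and 97 in Rbfox1 (chr16:6938466-6938878 and chr16:6845352-6845507).

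Tags were compared at the 51 places where 1 NOVA1 cluster overlapped 1 NOVA2 cluster and neither overlapped another. In introns, NOVA1 tags over NOVA2 tags had a median log2 ratio of -2.47 over 44 pairs (-2.73 to -2.13), beside -2.04 (-2.08 to -2.00) over all 3452 intron pairs. Rbfox1 had a median of -2.44 over 31 pairs (-2.68 to -1.87) and Ptbp2 of -2.28 over 9 pairs (-3.62 to -2.13). The 2 intron pairs of Rbfox3 gave -3.37 and -3.01. In 3′ UTRs the median was -1.57 over 6 pairs (-1.66 to 0.79), beside -0.40 over all 2146 such pairs. The 3 pairs of Ptbp2 lay between -1.66 and -1.55 and the 3 of Rbfox2 between -1.65 and 0.79. A pair enters only when both proteins reach 10 tags, so low ratios are left out where NOVA2 tags are few.

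NOVA1 had more tags than NOVA2 at 3 of the 51 pairs. They were an intron cluster of Rbfox1 with 47 NOVA1 and 30 NOVA2 tags (chr16:7006007-7006290 in the NOVA1 list), a 3′ UTR cluster of Rbfox2 with 19 and 11 tags (chr15:76912589-76912871), and the exon 5 cluster of Ptbp2 with 19 and 13 tags (chr3:119454784-119454892). Over the lists, 1005 of all 6770 pairs had more NOVA1 tags, among them 70 of 3452 intron pairs and 691 of 2146 3′ UTR pairs.

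**Figure D4:**
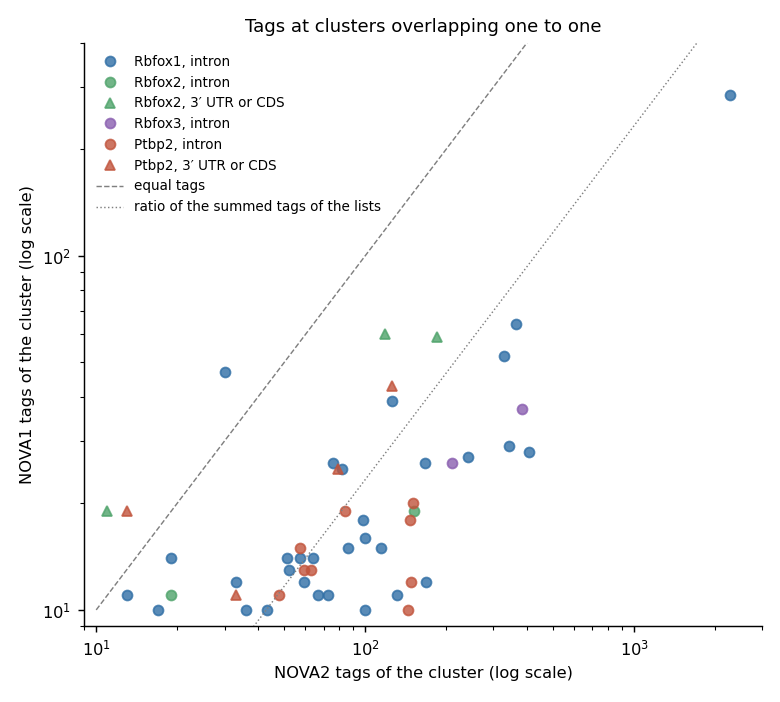
NOVA1 tags (log y axis) against NOVA2 tags (log x axis) at the 51 places where a single cluster of each list overlapped, with circles for introns, triangles for 3′ UTRs or coding sequence and a colour for each gene. The dashed line marks equal tags and the dotted line the ratio of the summed tags of the lists; 3 pairs lie above the dashed line, and the intron pairs, with a median of -2.47 on the log2 scale, gather near or below the dotted one.

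YCAY was more frequent in the clusters than in the introns around them. NOVA2 intron clusters of the 7 genes held 44.2 YCAY starts per 1000 positions and NOVA1 intron clusters 61.2, while the introns of the same genes outside clusters held 17.2. All NOVA2 intron clusters held 44.9 and all NOVA1 intron clusters 53.4. These densities were pooled over positions, so wide clusters weigh more. The median of single clusters in the 7 genes was 36.6 for NOVA2 and 44.9 for NOVA1. Over all intron clusters it was higher, 41.7 and 47.6. A YCAY was absent from 4 of 209 NOVA2 and from 0 of 55 NOVA1 intron clusters, beside 112 of 27293 and 27 of 4022 in the whole lists. The genes differed in density. Rbfox3 held 88.4 in NOVA2 and 105 in NOVA1 clusters, Rbfox1 42.2 and 56.5, Rbfox2 31.5 and 34.5, and Ptbp2 26.2 and 33.1. Outside clusters the 7 genes lay between 14.8 and 18.5. Clusters in 3′ UTRs held fewer, 18.6 for NOVA2 and 25.2 for NOVA1, beside 28.8 and 26.4 in all 3′ UTR clusters of the lists.

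**Figure D5:**
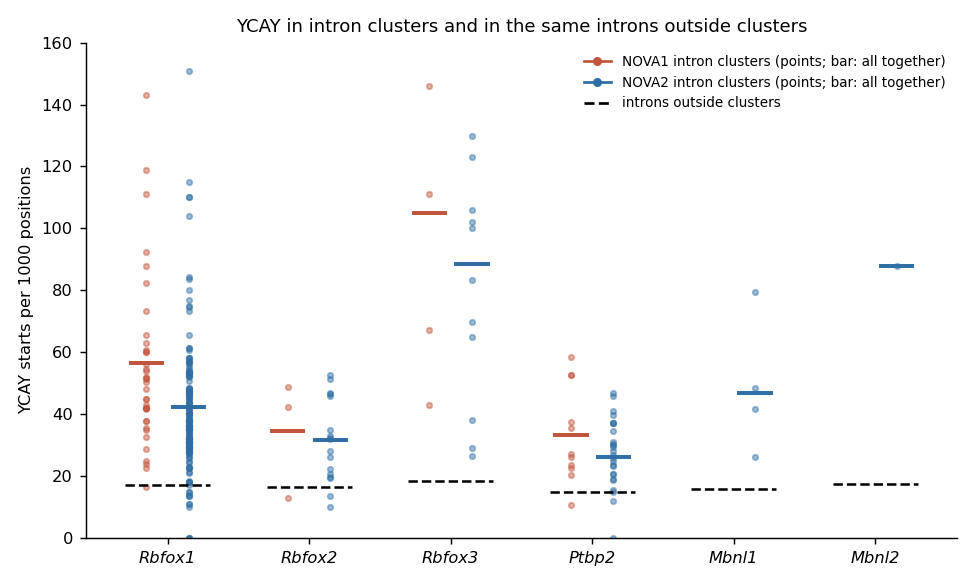
YCAY starts per 1000 positions (y axis) in each intron cluster of 6 genes, NOVA1 in red and NOVA2 in blue, with a bar for all intron clusters of the gene together and a dashed line for its introns outside clusters. The bars of Rbfox3 stand at 105 and 88.4 and those of Ptbp2 at 33.1 and 26.2, and the dashed lines lie between 14.8 and 18.5.

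Of the YCAY forms, UCAU was found in 83.7% of NOVA2 intron clusters of these genes, CCAU in 66.5%, UCAC in 62.2% and CCAC in 39.7%, beside 89.3%, 67.7%, 62.8% and 37.1% of all NOVA2 intron clusters. Per 1000 positions, UCAU stood at 17.2, CCAU at 12.7, UCAC at 8.26 and CCAC at 6.08, beside 20.1, 11.4, 8.55 and 4.87.

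The RBFOX motif UGCAUG was found in 24 of 209 NOVA2 intron clusters (11.5%, 7.84 to 16.5) and in 7 of 55 NOVA1 intron clusters (12.7%, 6.30 to 24.0), beside 7.10% and 6.86% of all intron clusters. CUCUCU, a PTBP motif, was found in 20 NOVA2 clusters (9.57%, 6.28 to 14.3) and 3 NOVA1 clusters (5.45%, 1.87 to 14.9), beside 8.60% and 7.48%. Matches were counted on the transcript strand only and say nothing of binding by these proteins.

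Other splicing regulators were counted from a fixed list of 23 genes, among them the Nova, Celf, Elavl and Khdrbs families. A NOVA2 cluster was found in 19 of them and a NOVA1 cluster in 15. They held 430 NOVA2 clusters, 85.6% in introns (81.9 to 88.6), and 111 NOVA1 clusters, 61.3% in introns (52.0 to 69.8). A median of 4 NOVA2 clusters per gene stood beside 11.0 in the 7 genes. These counts were not divided by the span of the genes, and long genes offer more RNA to bind. Celf2 held 215 of the 430 NOVA2 clusters, 203 of them in introns. Of the remaining paralogs of the 7 genes, Mbnl3 had no cluster, and Ptbp3 (named Rod1 in the annotation) had 2 NOVA2 clusters with 29 tags. NOVA1 overlap of NOVA2 clusters was 23.7% (19.9 to 28.0) in this list and 27.5% in the 7 genes. Without Celf2, left out after its values were seen, the list had 29.8% (24.1 to 36.2) overlap, with 76.7% of NOVA2 and 52.9% of NOVA1 clusters in introns.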

How the data were processed

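Values were taken from the 2 deposited cluster lists, 1 for NOVA1 and 1 for NOVA2. The authors aligned reads to mm9 with Novoalign (version not given in the sources used here), collapsed duplicates, joined overlapping tags into clusters and pooled the tag count of each cluster over the 3 libraries of a protein. The count is deposited unscaled. The study names the measure behind the minimum of 10 tags peak height, and the column itself has no name, so the tags of a cluster are likely its peak height and sums of tags sums of heights. A fixed minimum of 10 tags admits weaker sites where sequencing was deeper.

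Clusters were joined to GENCODE vM1 on the NCBIM37 genome (mm9); 0 clusters ended past a chromosome end. Each cluster took the class covering most of its nucleotides. A cassette exon is an internal exon lying inside an intron of another transcript; retained-intron transcripts were left out. Introns were numbered as gaps between merged exons, from the 5′ end. YCAY was counted per possible start on the cluster strand. Python 3.11.15, NumPy 2.4.6 and SciPy 1.17.1 were used, and the functions were tested on simulated data.

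The named clusters were, in each gene, the highest of each list, up to 3 NOVA2 intron clusters within 500 nt of a cassette exon, NOVA1 clusters without NOVA2 overlap and the 5 highest NOVA2 clusters without NOVA1 overlap; others are named where a count or place required it. The genes and lists were chosen with earlier results of these data known.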

Additional observations from a re-analysis of the deposited data

Results flagged for a closer look

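Both lists held clusters that belong to no gene of the annotation just upstream of Rbfox1. Between the end of the previous gene of the plus strand and the annotated start of Rbfox1, 220 NOVA2 clusters with 11543 tags and 39 NOVA1 clusters with 864 tags lay on the plus strand (chr16:5289715-6809314), and 0 clusters of either list lay on the minus strand. This was 5.42% of all NOVA2 clusters and 3.36% of all NOVA1 clusters outside annotated genes. All 39 NOVA1 clusters overlapped a NOVA2 cluster, the highest NOVA2 cluster had 841 tags, and YCAY stood at 46.4 per 1000 positions in the NOVA2 and 66.2 in the NOVA1 clusters. These clusters were drawn to attention because they lie outside the comparisons above. Rbfox1 is known to have promoters upstream of the annotated start used here, and whether these tags come from its transcripts was not tested.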

How the results depend on the processing

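Of 61 values recomputed under the alternatives for 15 results, 37 stayed within the interval of the value given above, or within 1.5 times for counts, 24 moved and 0 reversed. The overlap rules, the class by midpoint, exons of protein-coding transcripts alone and distances of 200 or 1000 nt moved none of the results they touch. With at least 20 tags in both lists, 27 NOVA1 and 121 NOVA2 clusters were left, 100% of NOVA1 and 19.8% of NOVA2 clusters overlapped the other list, the nearest exon was a cassette exon for 0% and 3.48% of intron clusters, and NOVA1 clusters held 71.9 YCAY per 1000 positions. With at least 25 tags in the NOVA2 list alone, 105 NOVA2 clusters were left, 87.9% of NOVA1 and 49.5% of NOVA2 clusters overlapped, the cassette share of NOVA2 was 2.02% and its YCAY 47.1. Without Rbfox1, 28 NOVA1 clusters (747 tags) and 68 NOVA2 clusters (5243 tags) were left, intron shares were 64.3% and 86.8%, shares within 500 nt of an exon 27.8% and 15.3%, YCAY 69.1 and 48.2, the overlap of NOVA2 clusters 38.2% and their cassette share 11.9%. Removing clusters or a gene makes these counts smaller by construction, and the cause of the other shifts was not tested. No paired analysis was possible because each cluster has a single count summed over 3 libraries, which also means that leaving out a library could not be tried.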
